A study of Canis lupus familiaris with 60 samples.

Results

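CCL3, CCL4, CXCL1 and CXCL6 are 4 genes for chemokines, the small secreted proteins that draw leukocytes into tissue. They were followed in skin biopsies of Beagle dogs, of which some had been sensitized to Dermatophagoides farinae, a house dust mite, and the others were nonsensitized. The members were chosen by the identifiers that the array design gives to its probes: ENSCAFT00000028854 for CCL3, ENSCAFT00000028847 for CCL4, TC77835 for CXCL1 and ENSCAFT00000038728 for CXCL6. Each identifier had 1 probe, so the members were 4 of the 60068 probes of the array that are not controls (54633 identifiers), printed on 26 of its 61657 spots.

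The study compared 6 sensitized with 6 nonsensitized dogs, all 2 to 3 yr old and kept alike; the former were 4 males and 2 females and the latter 2 males and 4 females. On the shaved chest of each dog, 1 patch held 75 mg of mite paste, here called the allergen site, and 1 patch held 50 µl of saline. An 8 mm punch biopsy was taken under local lidocaine from untreated skin at 0 hr and from both sites at 6 hr and at 24 hr, and each biopsy was hybridized to 1 one-colour array. This made 10 groups of 6 arrays: sensitized or nonsensitized dogs, each with untreated skin at 0 hr, saline at 6 hr, allergen at 6 hr, saline at 24 hr and allergen at 24 hr. The sensitized dogs had earlier been exposed to the mite powder through the skin and had mite-specific IgE, which makes them a model of induced and not of naturally occurring allergy. The same dogs gave all 5 biopsies, and the saline and allergen sites lay on the same animal under bandages.

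CCL3 and CCL4 are CC chemokines made by activated macrophages, lymphocytes and other cells, and they act on monocytes and T cells, CCL3 among others through the receptor CCR1. CXCL1 and CXCL6 are CXC chemokines made by stimulated keratinocytes, fibroblasts and endothelium, and they attract neutrophils through CXCR2. All of these genes are known to be switched on by inflammatory signals such as TNF and interleukin 1. In whole biopsies, a lower level can come from fewer cells of a type or from less RNA per cell, and these cannot be told apart.

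Levels are given on a log2 scale after variance stabilization, on which differences of probes near background are compressed. A probe was called as changed when limma's adjusted p over the 45972 probes past the filter was below 0.05 and the difference was at least 1.5-fold. The median processed signal per array ran from 81.7 to 146.1 in intensity units, and 68.8% to 80.2% of spots were well above background. Specimen 14, the 24 hr allergen site of sensitized dog 2839, was left out, so 59 arrays were used and that group had 5. The arrays lay on 8 slides. Untreated skin was on slides 6 to 8. All arrays of 24 hr were on slides 1 to 3, with 1 exception, the allergen site of dog 2840 on slide 8. Differences between 24 hr and untreated skin therefore cannot be told apart from differences between slides, except through that 1 array.

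The probes differed in how firmly they were measured. CCL4 was printed on 12 spots, all 12 passed the filter, and every one was well above background on all 59 arrays. The SD between its spots on 1 array had a median of 0.06, against a median SD of 0.81 between the arrays of a group, which differ in dog, RNA and often slide. 1 of the 12 spots was marked as an outlier on 44 arrays and was left out there. A second CCL4 probe on the array, designed from NM_001005250 and not a member, gave levels that correlated with the CCL4 probe at Pearson r = 0.99 over the 59 arrays. After the group means were taken out, r was 0.98 (both probes saw the same RNA on the same arrays).

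**Figure D1:**
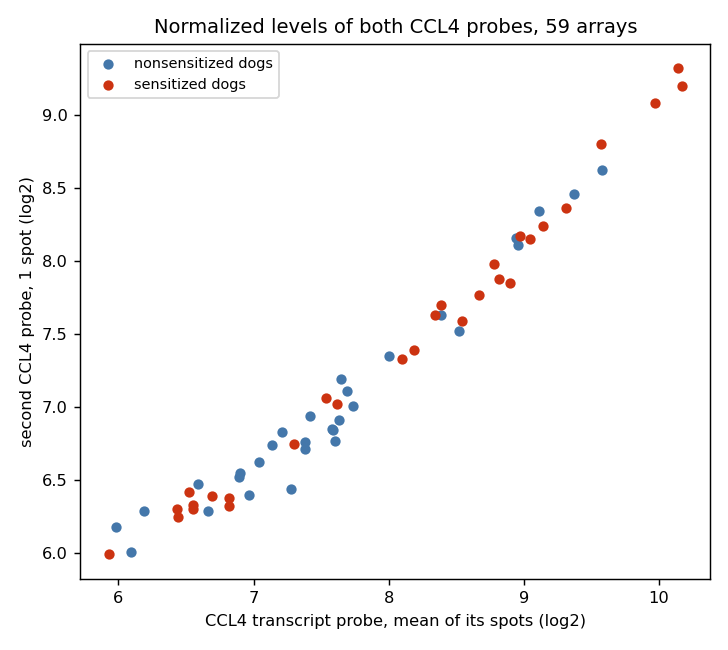
Each point is 1 of 59 arrays, with the normalized log2 level of the CCL4 transcript probe on the x axis, as the mean of its spots, and that of the second CCL4 probe, on 1 spot, on the y axis. Blue points are nonsensitized and red points sensitized dogs, and both colours fall along the same rising band, with r = 0.99, which is flatter below a level of about 7.

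CXCL1 was on 1 spot, which was well above background on every array. CCL3 and CXCL6 were dim. CCL3 was printed on 12 spots, 9 of which passed the filter, with a median SD of 0.15 between the spots of an array and a median SD of 0.17 between the arrays of a group. All 9 met the filter at the 24 hr allergen site of the sensitized dogs, where CCL3 was highest, and 6 of them met it there alone. Of its 60 spot values at the 24 hr allergen site of the sensitized dogs, 57 were well above background, whereas 15 of 72 were at the same site of the nonsensitized dogs. There, 3 of the 6 arrays had any CCL3 spot well above background. In untreated skin the counts also differed, 41 of 72 in sensitized and 14 of 72 in nonsensitized dogs, although the CCL3 level there differed by 0.11 with a 95% confidence interval of -0.21 to 0.42. The second CCL3 probe, from NM_001005251, did not pass the filter: it was well above background on 12 of 59 arrays, 4 of them among the 5 of the sensitized 24 hr allergen group.

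The single CXCL6 spot was well above background on all 5 arrays of the sensitized 24 hr allergen site and on all 6 arrays of the 24 hr saline site of each group of dogs. It was well above background on 0 of 6 arrays of untreated skin in either group of dogs, of the 6 hr saline site in sensitized dogs and of the 24 hr allergen site in nonsensitized dogs. At each of the other 3 sites 1 of 6 arrays was. For these groups the level is a bound, and comparisons with a group at 0 are given below as "at least": the brighter mean against, on each dim array, the higher of the probe's own value and the lowest value of any spot well above background. CXCL1 and CXCL6 carry names that were given to their dog sequences by similarity to human genes, and CCL3 and CCL4 were found by symbol in the RefSeq dog annotation, where they lie next to each other with 0 annotated genes between. Hybridization of related chemokine transcripts to these probes was not tested.

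**Figure D2:**
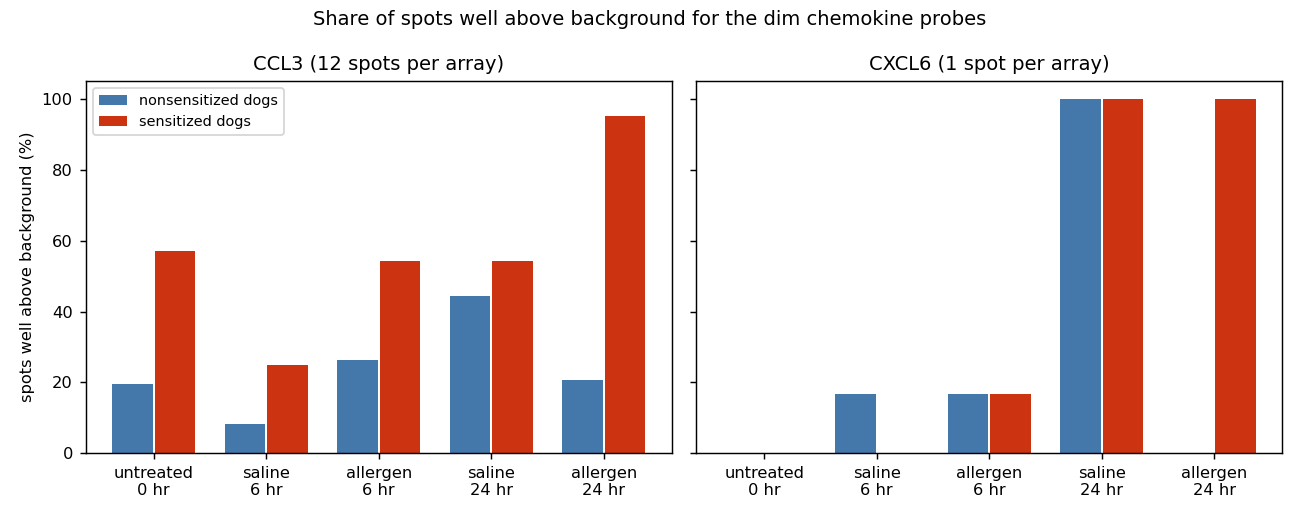
Bars show the percentage of spots well above background in each site and time (x axis), for CCL3 (12 spots per array) and CXCL6 (1 spot per array), blue for nonsensitized and red for sensitized dogs. At 24 hr CXCL6 reached every array of the saline sites and of the sensitized allergen site, and 0 of 6 arrays of the nonsensitized allergen site.

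CCL4 had its highest mean at the 24 hr allergen site of the sensitized dogs and its lowest in untreated skin. In untreated skin its level ran from 5.98 to 7.04 in nonsensitized dogs (median 6.43) and from 5.93 to 8.34 in sensitized dogs (median 6.48). At the 6 hr saline site it ran from 6.59 to 8.94 (median 7.40) and from 6.55 to 8.97 (median 6.82), in the same order of dogs. The groups overlapped at both sites, and in each of the ranges that reached above 8 a single dog stood at the top, dog 2853 in untreated skin and dogs 2716 and 2855 at the saline site.

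At the 6 hr allergen site CCL4 ran from 7.14 to 9.37 in nonsensitized dogs (median 7.85) and from 7.54 to 10.14 in sensitized dogs (median 8.85). After 24 hr of saline it ran from 6.90 to 9.58 (median 8.45) and from 7.30 to 8.82 (median 8.61). Both pairs of groups overlapped over most of their range. After 24 hr of allergen the nonsensitized dogs lay close together, from 6.97 to 7.63 (median 7.58), and the 5 sensitized dogs were at 9.05, 9.14, 8.90, 9.97 and 10.17. These groups did not overlap, and the lowest sensitized dog was above the highest nonsensitized dog by more than the whole range of the latter.

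CCL3 also had its highest mean at the 24 hr allergen site of the sensitized dogs, over a narrower range of levels. In untreated skin it ran from 4.72 to 4.81 in nonsensitized dogs (median 4.75) and from 4.72 to 5.12 in sensitized dogs (median 4.83). After 24 hr of saline it ran from 4.91 to 5.47 (median 5.22) and from 4.76 to 5.22 (median 5.13). After 24 hr of allergen it ran from 4.81 to 5.04 in nonsensitized dogs (median 4.95) and was 5.58, 5.46, 5.27, 5.69 and 6.27 in the sensitized dogs. As processed signal, before any scaling, the last were 18.2 to 58.4 and the former 6.11 to 13.8 intensity units. The 5 sensitized dogs were above all 6 nonsensitized dogs on both scales. At 6 hr the CCL3 groups overlapped at both sites: 4.73 to 5.16 and 4.74 to 5.65 after saline, 4.70 to 5.18 and 4.81 to 6.36 after allergen, nonsensitized dogs first.

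CXCL1 was well above background in every biopsy. It ran from 7.51 to 8.27 in untreated skin of nonsensitized dogs (median 8.10) and from 7.66 to 8.05 in sensitized dogs (median 7.83). At the 6 hr saline site it ran from 8.10 to 9.38 (median 8.25) and from 7.65 to 7.99 (median 7.84). These ranges did not overlap, which was not tested, and the share of all probes that separate in this way was not counted. Slide 4 held 3 of these nonsensitized arrays and 0 of the sensitized ones. After 6 hr of allergen CXCL1 ran from 8.15 to 9.58 in nonsensitized dogs (median 8.27), with dogs 2704 and 2716 above 9 and the others below 8.30. In sensitized dogs it ran from 8.27 to 9.91 (median 8.54).

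At the 24 hr saline site CXCL1 ran from 8.67 to 9.84 in nonsensitized dogs (median 9.10) and from 7.88 to 9.12 in sensitized dogs (median 8.98). At the 24 hr allergen site it ran from 7.92 to 8.55 in nonsensitized dogs (median 8.43) and was 8.87, 8.60, 9.46, 8.92 and 9.64 in sensitized dogs. The allergen groups again did not overlap, but the gap between 8.55 and 8.60 was small. CXCL1 differed from the other members in where its highest mean lay, which was the 24 hr saline site of the nonsensitized dogs, 9.17 ± 0.39 (SD, n = 6). The sensitized 24 hr allergen site followed with 9.10 ± 0.44 (SD, n = 5), and the gap was smaller than either SD.

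CXCL6 was near background in most groups and clearly measured in 3 of them. Its processed signal ran from 2.22 to 4.00 intensity units in untreated skin of nonsensitized dogs and from 2.50 to 9.41 in sensitized dogs, below the detection limit on all 12 arrays. At 24 hr the saline site gave 26.0 to 73.7 (median 38.1) in nonsensitized and 14.1 to 85.2 (median 57.4) in sensitized dogs. The allergen site gave 2.41 to 12.6 (median 4.52) in nonsensitized dogs and 101, 51.5, 120, 60.7 and 90.5 in the sensitized dogs. The 24 hr allergen site of the nonsensitized dogs thus lay with untreated skin below detection, while their saline site and both sites of the sensitized dogs were detected on every array.

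On the log2 scale CXCL6 was 6.69, 6.17, 6.88, 6.08 and 6.77 at the 24 hr allergen site of the sensitized dogs, against 4.35 to 5.07 (median 4.76) in the nonsensitized dogs. The 24 hr saline values were 5.56 to 6.44 (median 5.73) in nonsensitized and 4.94 to 6.51 (median 6.15) in sensitized dogs. The 2 allergen groups did not overlap and the 2 saline groups did. At 6 hr all 4 groups overlapped, between 4.18 and 5.59 in nonsensitized and between 4.42 and 5.33 in sensitized dogs, with dog 2704 highest after allergen and dog 2716 highest after saline among the nonsensitized dogs.

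**Figure D3:**
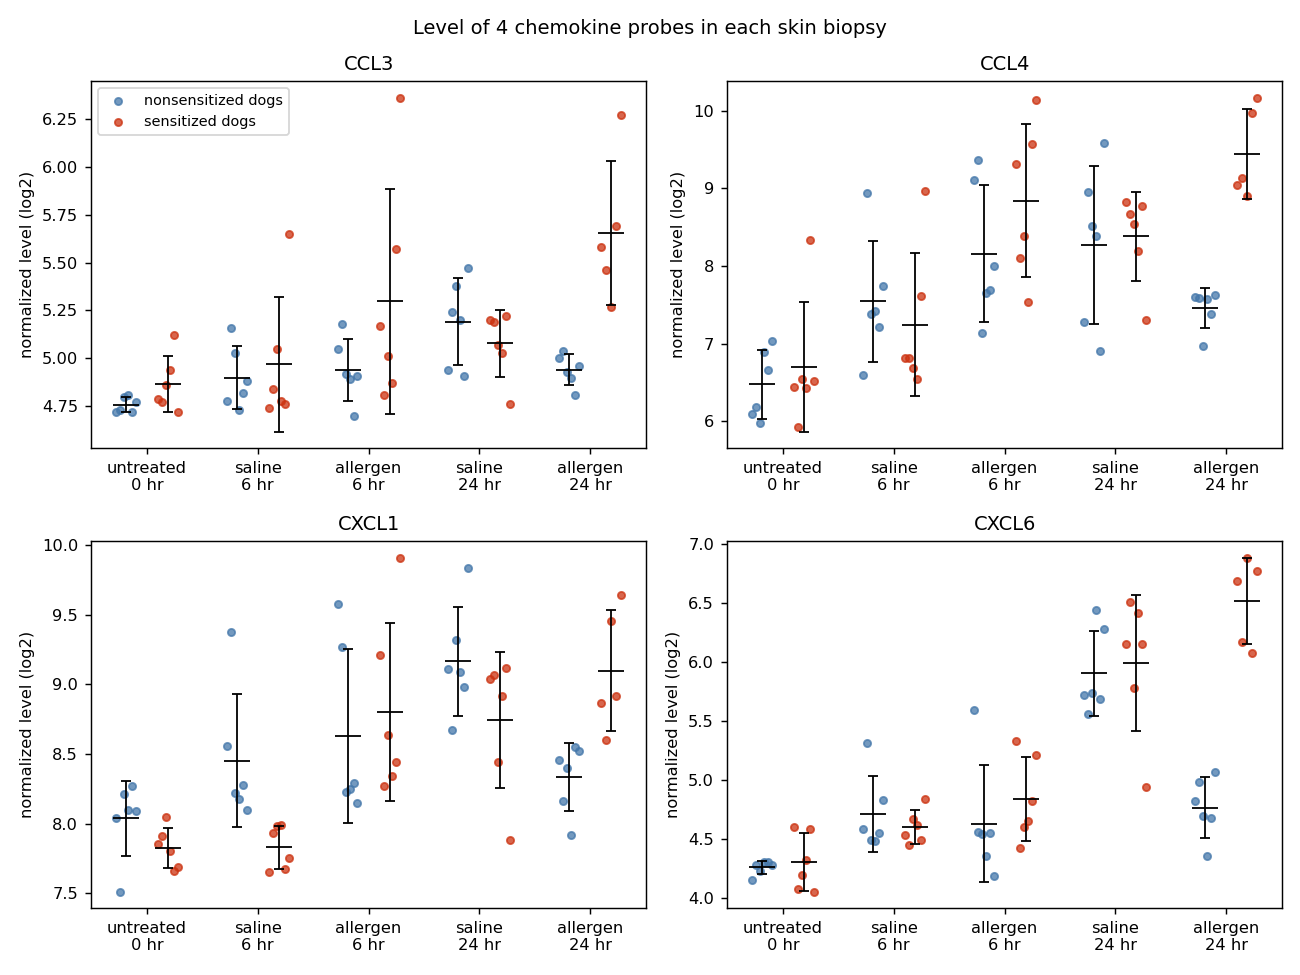
Normalized log2 level (y axis) of each member in each biopsy, by site and time (x axis), with 1 point per dog, blue for nonsensitized and red for sensitized, and black bars for the mean and SD of the group (n = 6, or 5 for the sensitized 24 hr allergen site). At the 24 hr allergen site the red points lie above all blue points for every member, and at the 24 hr saline site they overlap.

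The comparison of both groups of dogs at the 24 hr allergen site asked whether sensitized skin held more of these transcripts under the allergen. All 4 members were called higher in sensitized dogs, where 3.33% of all probes tested were called higher. The study had selected these genes by the 24 hr interaction, which uses the same arrays, so this count is not independent evidence. For none of the 4 did the groups overlap, and 3.7% of all probes had every sensitized dog above every nonsensitized dog. CCL4 differed by 1.99 ± 0.45 (SE) on the log2 scale, or 3.96-fold (adjusted p = 0.00142). CXCL1 differed by 0.76 ± 0.25 (adjusted p = 0.0227) and CCL3 by 0.72 ± 0.16 (adjusted p = 0.00155). The CCL3 spots had passed the filter through the higher of these groups, and in the lower one 15 of 72 spot values were well above background, so its value there is near background. CXCL6 was at least 2.70-fold higher, with measured means of 6.52 and 4.77 (adjusted p = 2.53e-07).

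Scaling each array to its 75th percentile in place of variance stabilization left CCL4 at 2.11 and CXCL1 at 0.78. It moved the 2 dim members by far more, CCL3 to 1.87 and CXCL6, as measured, from 1.75 to 4.13. All 4 stayed called (10.3% of all probes were, in either direction). Without dog 2855, 2 of the 4 were called, and the share of all probes called in that fit is not given here.

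At the 24 hr saline site the same comparison called 0 of 4 members (1.78% of all probes were called higher and 0.537% lower in sensitized dogs), and 0 of 4 had an unadjusted p below 0.05, against 22% of all probes. CCL4 differed by 0.11 with a 95% confidence interval of -0.75 to 0.98, CCL3 by -0.11 (-0.43 to 0.20, and by 0.18 after scaling to the 75th percentile), CXCL1 by -0.42 (-0.90 to 0.06) and CXCL6 by 0.08 (-0.31 to 0.48). In untreated skin 0 of 4 members were called and 0 had an unadjusted p below 0.05 (3.31% of all probes had), with differences between -0.21 for CXCL1 and 0.23 for CCL4. With the slide as a block those of CCL4 and CCL3 turned from 0.23 to -0.18 and from 0.11 to -0.03, and CXCL6 was not well above background in either group. Of all probes 0.00218% were called there.

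Within the nonsensitized dogs the 24 hr allergen site was set against their own saline site, and all 4 members were measured lower at the allergen site. This difference is 1 part of the 24 hr interaction by which the study selected the members. Calls and missing overlaps here are therefore not independent evidence. CXCL6 was called, where 0.635% of all probes were called lower and 0.104% higher. It was at least 1.77-fold higher at the saline site, with measured means of 5.91 there and 4.77 at the allergen site (adjusted p = 0.00044), and it was lower under the allergen in 6 of 6 dogs. The saline and allergen values of CXCL1 did not overlap either, nor did those of 1.4% of all probes in this direction. CXCL1 was lower by 0.83 ± 0.24 (SE), in 6 of 6 dogs, with an adjusted p of 0.0578, and with the dog as a block it was called (adjusted p = 0.0383, with 1.27% of all probes called).

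CCL4 differed by -0.81 ± 0.43 in the nonsensitized dogs (adjusted p = 0.479). It was lower in 4 of 6 dogs, by up to 1.95 in dog 2847, and higher in dogs 2704 and 2845. CCL3 differed by -0.25 ± 0.16 (adjusted p = 0.611) and was lower in 5 of 6 dogs. Within slide 1, which held 4 allergen and 3 saline arrays, the differences were -0.27 for CCL3, -1.09 for CCL4, -0.76 for CXCL1 and, as measured, -0.99 for CXCL6. Slides 2 and 3 gave negative differences for all 4 as well.

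In the sensitized dogs at 24 hr, 0 of 4 members were called between allergen and saline, where 0.17% of all probes were called higher and 0.1% lower. 3 of the 4 had an unadjusted p below 0.05, as had 11.3% of all probes. This difference is the other part of the interaction by which the study selected the members, so these counts are not independent evidence. CCL4 was higher by 1.06 ± 0.45 (adjusted p = 0.332) and CCL3 by 0.58 ± 0.16 (adjusted p = 0.0899), each in 5 of 5 dogs and with no overlap between the sites, as had 0.666% of all probes. CXCL6 was higher by 0.52 ± 0.21 in 4 of 5 dogs (adjusted p = 0.28) and CXCL1 by 0.35 ± 0.25 in 3 of 5 dogs (adjusted p = 0.697). With the slide as a block CCL3 was called, with a difference of 0.62, as were 0.768% of all probes. The CCL3 spots had passed the filter through this allergen site, where 9 of 12 met it, against 2 of 12 at the saline site. Slide 3, with 3 arrays of each site, gave 0.85 for CCL3, 1.64 for CCL4, 0.50 for CXCL1 and 0.67 for CXCL6. Slide 2, with 1 allergen and 2 saline arrays, gave 0.14, 0.29, 0.70 and 0.74.

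Among the sensitized dogs, the allergen site exceeded the saline site at 24 hr by most in dog 2855 for every member: 1.51 for CCL3, 2.87 for CCL4, 1.76 for CXCL1 and 1.83 for CXCL6. It was the lowest sensitized dog at the saline site for all 4 genes as well as the highest at the allergen site for CCL3, CCL4 and CXCL1. Among the other 4 dogs the difference ran from 0.23 to 1.19 for CCL4 and from 0.24 to 0.47 for CCL3. It ran from -0.21 to 0.54 for CXCL1 and from -0.08 to 0.53 for CXCL6.

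**Figure D4:**
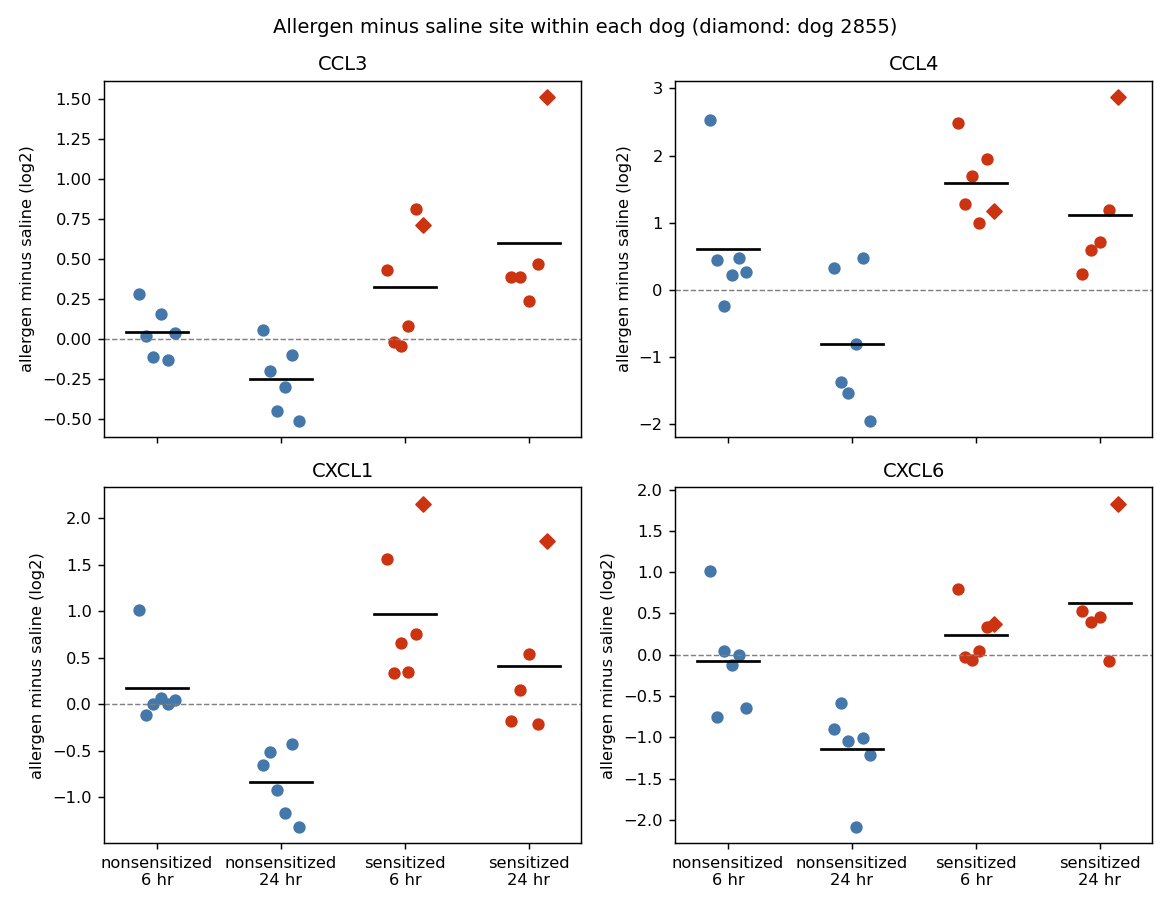
Allergen site minus saline site of the same dog on the log2 scale (y axis) for each member, in nonsensitized (blue) and sensitized (red) dogs at 6 hr and 24 hr (x axis), with black lines at the means and a diamond for dog 2855. At 24 hr CXCL1 and CXCL6 were below 0 in all 6 nonsensitized dogs, and CCL3 and CCL4 above 0 in all 5 sensitized dogs.

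The 24 hr interaction is the allergen minus saline difference of sensitized dogs minus that of nonsensitized dogs. The members belong to the genes that the study selected by this comparison on these samples, so their values here describe them and are not independent evidence. It was 1.67 ± 0.29 (SE) for CXCL6 (adjusted p = 0.00193), 0.83 ± 0.23 for CCL3 (adjusted p = 0.0494), 1.18 ± 0.35 for CXCL1 (adjusted p = 0.0667) and 1.88 ± 0.62 for CCL4 (adjusted p = 0.114). CXCL6 and CCL3 were called, beside 0.618% of all probes called in this direction. For CCL3 the filter was met through the sensitized allergen site compared here, and with no filter the call was lost (adjusted p = 0.159). With the nonsensitized allergen site of CXCL6 at its bound, its interaction was at least 1.35, or at least 2.54-fold, after variance stabilization as in the main fit.

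With the dog as a block all 4 members were called, with adjusted p of 0.0116 for CCL3, 0.0319 for CCL4, 0.0369 for CXCL1 and 0.000983 for CXCL6, and so were 3.45% of all probes. Scaled to the 75th percentile the interaction of CCL3 was 1.69 and no longer called (adjusted p = 0.103), and that of CXCL6 stayed called, with 0.748% of all probes. The CCL3 call lay at the limit and was lost when any 1 of 10 of the 12 dogs was left out, the exceptions being dogs 2704 and 2841. Without dog 2855 the interaction was 0.61 for CCL3, 1.48 for CCL4, 0.87 for CXCL1 and, as measured, 1.39 for CXCL6, which alone stayed called.

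The interaction is made of the allergen minus saline differences of both groups of dogs. They were 1.06 in sensitized and -0.81 in nonsensitized dogs for CCL4, 0.35 and -0.83 for CXCL1, 0.52 and -1.14 for CXCL6, and 0.58 and -0.25 for CCL3. The value of CXCL6 in nonsensitized dogs is as measured, with the allergen site not well above background. Without dog 2855 the sensitized part was 0.67 for CCL4, 0.36 for CCL3, 0.25 for CXCL6 and 0.04 for CXCL1. Whether the sizes of the parts differ was not tested.

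**Figure D5:**
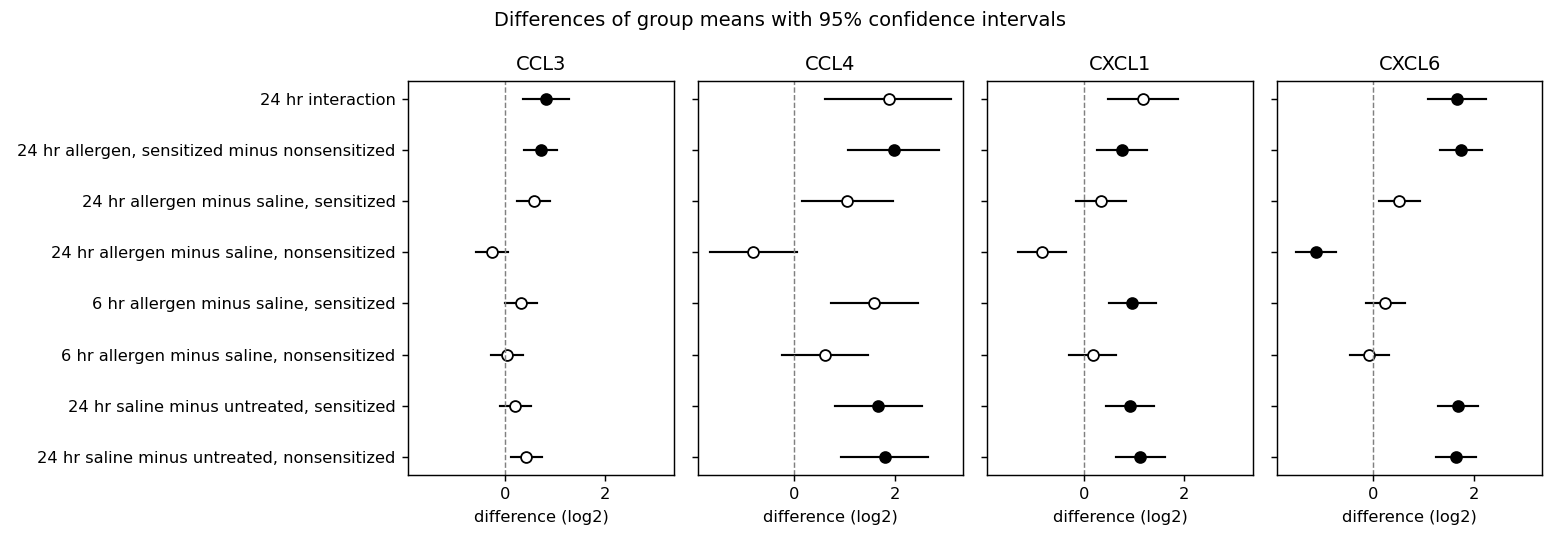
Differences of group means on the log2 scale (x axis) with 95% confidence intervals for each member (panels), for 8 comparisons (rows); filled points were called at an adjusted p below 0.05 and 1.5-fold, open points were not, and CXCL6 is plotted as measured also where a group was not well above background. The 24 hr allergen comparison between groups of dogs is filled for all 4 members, whereas allergen minus saline at 24 hr is filled for CXCL6 in nonsensitized dogs alone.

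At 6 hr the allergen site of the sensitized dogs was set against their saline site. 1 of 4 members, CXCL1, was called, where 0.398% of all probes were called higher. CXCL1 was higher by 0.97 ± 0.24 (SE), or 1.96-fold (adjusted p = 0.0371), in 6 of 6 dogs, from 0.34 in dog 2839 to 2.16 in dog 2855. Its sites did not overlap, nor did those of 0.785% of all probes. Without dog 2855 the difference was 0.73 (adjusted p = 0.366) and without dog 2838 it was 0.86 (adjusted p = 0.415). It was also not called without dog 2800, 2839, 2840, 2845 or 2853, where the adjusted p lay between 0.0524 and 0.0921.

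CCL4 was higher at the 6 hr allergen site in 6 of 6 sensitized dogs too, by 0.99 to 2.48. Its mean difference of 1.59 ± 0.43 had an adjusted p of 0.0729, and with the dog as a block CCL4 was called (adjusted p = 0.0149, with 0.859% of all probes called). CCL3 differed by 0.33 ± 0.16 (adjusted p = 0.492) and was higher in 4 of 6 dogs. CXCL6 was well above background on 1 of 6 arrays at the allergen site and on 0 of 6 at the saline site, so no difference is given (adjusted p = 0.86). In nonsensitized dogs 0 of 4 members were called, where 0.0348% of all probes were, and 0 of 4 had an unadjusted p below 0.05, against 5.45% of all probes. There CCL4 differed by 0.62 (95% confidence interval -0.25 to 1.48), CXCL1 by 0.18 (-0.30 to 0.65) and CCL3 by 0.04 (-0.27 to 0.36). CXCL6, well above background on 1 of 6 arrays at each site, differed by -0.08 (-0.47 to 0.32), a direction that turned to 0.05 after scaling to the 75th percentile, to 0.12 with the slide as a block and to 0.01 with normexp background correction.

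Dog 2704 gave most of the nonsensitized difference of CCL4 and CXCL1 at 6 hr, with 2.53 for CCL4 and 1.02 for CXCL1. Without it the differences were 0.23 and 0.01. Its CXCL6 difference of 1.01 was opposite in sign to the mean, which was -0.30 without it. Dog 2716 was high at both of its 6 hr sites, with CCL4 at 8.94 after saline and 9.37 after allergen and CXCL1 at 9.38 and 9.27. The 6 hr interaction called 0 of 4 members and 0 of all probes by limma, with 1 member (CXCL1) and 1.12% of all probes at an unadjusted p below 0.05. It was 0.98 for CCL4 (95% confidence interval -0.25 to 2.20), 0.80 for CXCL1 (0.12 to 1.47) and 0.28 for CCL3 (-0.16 to 0.73).

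Against untreated skin CCL4, CXCL1 and CXCL6 were higher at the 24 hr saline site of both groups of dogs. These comparisons share the saline or the untreated arrays with those above. In nonsensitized dogs 3 of 4 members were called higher, where 9.05% of all probes were. CCL4 was higher by 1.80 ± 0.43 (SE) and CXCL1 by 1.13 ± 0.24, and CXCL6 was at least 1.98-fold higher (measured means 5.91 and 4.26). In sensitized dogs 3 of 4 were called higher, where 3.88% of all probes were: CCL4 by 1.68 ± 0.43, CXCL1 by 0.92 ± 0.24 and CXCL6 by at least 2.37-fold (measured means 5.99 and 4.30). The adjusted p of these 6 differences were at most 0.00246. CCL3 differed by 0.43 and 0.21, below the fold limit, and by 0.03 and -0.05 after scaling to the 75th percentile. With the slide as a block these differences were smaller in both groups of dogs. In nonsensitized dogs they were then 0.76 for CCL4, 0.35 for CXCL1 and 0.02 for CCL3, and in sensitized dogs 1.11, 0.33 and -0.06.

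At the 24 hr allergen site of the sensitized dogs, 4 of 4 members were called higher than in untreated skin, where 7.03% of all probes were. For none of the 4 did the groups overlap, nor for 10.1% of all probes in this direction. The CCL3 spots had passed the filter through this allergen site, where 9 of 12 met it, against 1 of 12 in untreated skin. These allergen arrays also enter the 24 hr interaction by which the study selected the members, so neither count is independent evidence. CCL4 was higher by 2.74 ± 0.45, or 6.70-fold, CXCL1 by 1.27 ± 0.25 and CCL3 by 0.79 ± 0.16, and CXCL6 was at least 3.40-fold higher (measured means 6.52 and 4.30). In nonsensitized dogs 0 of 4 were called between the 24 hr allergen site and untreated skin, where 4.93% of all probes were called higher, and 2 of 4 had an unadjusted p below 0.05, as had 51.5% of all probes. CCL4 there differed by 0.98 (95% confidence interval 0.12 to 1.85, adjusted p = 0.0575), and with the dog as a block it was called (adjusted p = 0.0224, with 16.3% of all probes called). CXCL1 differed by 0.30 (-0.18 to 0.78) and CCL3 by 0.18 (-0.13 to 0.49), the latter by -0.52 after scaling to the 75th percentile. With the slide as a block these directions turned, to -0.10 for CCL4, -0.49 for CXCL1 and -0.24 for CCL3. CXCL6 was well above background on 0 of 6 arrays at either site, so no difference is given.

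With the slide as a block, CXCL6 was the 1 member of 4 still called against untreated skin in sensitized dogs, at the 24 hr allergen site (11.9% of all probes called) and at the 24 hr saline site (8.02%). At the saline site of nonsensitized dogs 0 of 4 were (3.36% of all probes). CCL4 then differed by 2.26 at the sensitized allergen site (adjusted p = 0.056), CXCL1 by 0.87 (adjusted p = 0.189) and CCL3 by 0.56 (adjusted p = 0.212). Slide 8 held the 24 hr allergen array of dog 2840 together with 3 untreated arrays of sensitized dogs. On that slide CCL3 was 5.46 against 4.86 to 5.12, CCL4 9.14 against 6.43 to 8.34, CXCL1 8.60 against 7.66 to 8.05 and CXCL6 6.17 against 4.19 to 4.58. The single array was above the 3 untreated arrays for every member.

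At 6 hr the allergen site exceeded untreated skin for CCL4 in both groups of dogs. It was higher by 2.14 ± 0.43 in sensitized dogs (adjusted p = 0.000664) and by 1.69 ± 0.43 in nonsensitized dogs (adjusted p = 0.0125), in 6 of 6 dogs of each group. CXCL1 was called in sensitized dogs alone (0.98 ± 0.24, adjusted p = 0.00375), and differed by 0.59 in nonsensitized dogs (adjusted p = 0.116), where dogs 2704 and 2716 had 1.54 and 1.76 and the other 4 dogs 0.02 to 0.16. Among all probes, 2.03% were called higher in sensitized and 0.944% in nonsensitized dogs. In the latter the CCL4 call was lost without dog 2704 or without dog 2716. With the slide as a block 0 of 4 members were called in either group (0.387% and 0.0152% of all probes). The CCL4 difference was then 2.06 in sensitized dogs (adjusted p = 0.0687) and 1.09 in nonsensitized dogs (adjusted p = 0.884), and that of CXCL1 in sensitized dogs was 0.62 (adjusted p = 0.393). The 6 hr saline site against untreated skin called 0 of 4 members in each group of dogs by limma, while 0 of 4 in sensitized and 2 of 4 in nonsensitized dogs had an unadjusted p below 0.05, as had 27.1% and 25.6% of all probes. Among all probes, 0.107% and 0.209% were called higher there. With the dog as a block CCL4 was called in the nonsensitized dogs (1.07, adjusted p = 0.0352, with 2.64% of all probes called), and with the slide as a block it differed by 0.48 (adjusted p = 1.0).

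The 10 groups were also ordered by mean level, which by itself sets groups of similar level side by side. For CCL4 and CCL3 each group differed from the next by less than the larger of their SD, in 9 of 9 neighbouring pairs. CXCL6 had 2 wider gaps on this scale. The first, of 1.07 against an SD of 0.36 and with no overlap, lay between the nonsensitized 24 hr saline site (5.91) and the sensitized 6 hr allergen site (4.84), and so set the 3 detected groups apart from the rest. The second lay between the sensitized 6 hr saline site and untreated skin of the same dogs, where CXCL6 was well above background on 0 of 6 arrays each, and this order turned after scaling to the 75th percentile (1.74 and 2.16 on that scale). CXCL1 had 1 such gap, of 0.29 against 0.27, between the nonsensitized 24 hr allergen site and untreated skin of nonsensitized dogs.

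Across the 59 arrays the members varied together, most closely within each chemokine class. The arrays share dogs, slides and groups, so the correlations are a description. Pearson r was 0.83 for CCL3 with CCL4 and 0.75 for CXCL1 with CXCL6, and between 0.63 and 0.73 for the 4 pairs of a CC with a CXC member. After the group means were taken out, r was 0.76 and 0.72 for the pairs within a class and 0.43 to 0.54 for the others.

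Of 897 other genes with a symbol, those with the pattern most like CCL4 were BIRC3 (r = 0.91), CASP4 (0.89), CASP12 (0.85), CCL8 (0.83) and CCL2 (0.83). BIRC3 encodes an inhibitor of apoptosis, CASP4 and CASP12 encode inflammatory caspases, and CCL8 and CCL2 attract monocytes. For CCL3 they were BIRC3 (0.74), CCL7 (0.72), TNFRSF12A (0.72), C5AR1 (0.70) and TNFSF13B (0.70), C5AR1 being a receptor for the complement fragment C5a. For CXCL1 they were IL6 (0.90), ARG2 (0.88), ICAM1 (0.87), C5AR1 (0.87) and MYC (0.85), with ICAM1 an adhesion molecule that leukocytes bind. CXCL6 was most like CCL19 (0.88), IL33 (0.86), TIMP1 (0.85), SELENOM (0.85) and SLC1A1 (0.85). CCL19 guides lymphocytes and dendritic cells, and IL33 is a cytokine released by damaged epithelium. The median r over the 897 genes was 0.03 to 0.07 for the 4 members.

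Of the chemokine receptor genes CCR1, CCR3 and CXCR2, 0 of 3 were called in the 24 hr interaction. It was 0.97 ± 0.32 (SE) for CCR3 (adjusted p = 0.107) and 0.60 ± 0.20 for CCR1, a receptor of CCL3 (adjusted p = 0.118). CXCR2, the receptor of CXCL1 and CXCL6, had 0.05 ± 0.13 (adjusted p = 0.945), and its mean level stayed between 5.34 and 5.61 in all 10 groups. That is within the range of group means of the dim CCL3 probe, 4.76 to 5.65, where differences are compressed and a change could be missed. Against untreated skin CCR3 rose at the 24 hr allergen site of sensitized dogs by 0.64 ± 0.23 (adjusted p = 0.0216), with 3 of 6 untreated arrays well above background.

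Of 13 other CC chemokine genes past the filter, 4 were called higher and 0 lower in the 24 hr interaction, beside 0.618% of all probes called higher: CCL2 (2.35), CCL8 (2.44), CCL13 (1.38) and CCL19 (1.96), on the log2 scale. The study had selected these 4, as well as IL6 and CD28, by this interaction on the same samples, so these calls are not independent evidence. The median over all 13 was 1.02, against -0.01 over all probes. In the nonsensitized dogs 4 of the 13 fell at the 24 hr allergen site against saline, where 0.635% of all probes did, CCL2 by 2.20, CCL8 by 2.18, CCL13 by 0.92 and CCL19 by 1.44. In the sensitized dogs 1 of the 13 was called higher in that comparison (0.17% of all probes), CCL17, a ligand that attracts T helper cells, by 2.85 ± 0.64 (adjusted p = 0.0201). Of the 3 other CXC genes measured, 0 were called in the interaction (CXCL8 1.94, CXCL10 0.82 and CXCL12 0.56). Of 9 genes of inducing cytokines and their signalling, 1 was called, IL6, with 2.71 ± 0.72 (adjusted p = 0.041). The median over these 9 was 0.38, with 0.31 for TNF (adjusted p = 0.303) and -0.16 for IL1A (adjusted p = 0.889). At the 24 hr allergen site of the nonsensitized dogs IL6 was well above background on 1 of 6 arrays, so that this interaction rests on values near background there. Its measured mean was 4.87 at that site and 7.21 at the saline site, where 6 of 6 arrays were well above background (adjusted p = 0.00547). Of 3 other chemokine receptors measured (CCR4, CXCR3 and ACKR3) 0 were called.

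Markers of skin and of leukocytes were read beside the members. Keratinocyte, fibroblast and endothelial markers were present on all arrays, and 0 of their 8 measured genes were called in the 24 hr interaction, nor were DES and ADIPOQ for muscle and fat. The 3 keratinocyte genes had a median of -0.51 in the interaction, opposite to the members and against -0.01 over all probes, with -0.51 for KRT1 (adjusted p = 0.441), -0.60 for DSG1 (adjusted p = 0.0982) and -0.05 for DSG3. Their summed signal at the 24 hr allergen site, scaled by the 75th percentile of each array, was 81800 to 131000 intensity units in sensitized and 124000 to 198000 in nonsensitized dogs. For neutrophils 3 of 8 listed genes were measured, and their summed signal at that site, on the same scale, was 99500 to 227000 intensity units in sensitized and 12600 to 90300 in nonsensitized dogs. Nearly all of that sum was S100A8, which stimulated keratinocytes also make, with an interaction of 2.82 (adjusted p = 0.118). The other neutrophil genes, ELANE and CXCR2, had 0.06 and 0.05, the latter at the dim level given above. CD163, the 1 measured macrophage gene, had 0.96 (adjusted p = 0.216). Of 3 T cell genes CD28 alone was called (0.88, adjusted p = 0.00676), beside 0.618% of all probes called higher. The study had selected CD28 by this interaction, and the median over the 3 T cell genes was 0.15. Of 3 mast cell genes 0 were called (MS4A2 1.29, adjusted p = 0.0731). The part of these cells in the chemokine differences was not tested.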

How the data were processed

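RNA of 60 biopsies was hybridized to custom one-colour Agilent arrays, and the deposited intensity values (the processed signal per spot, from which background had been subtracted, with a flag for spots well above background) were read by the authors with Feature Extraction 10.7.3.1. The values of the deposited series table equal those signals (largest difference 0). Spots flagged as outliers were left out, and spots had to be well above background on 5 or more arrays of any 1 group. Processed signals were normalized by variance stabilization, written anew for this purpose and tested on simulated data (trim quantile 0.9), and spots of 1 probe were averaged. A single limma fit (limma 3.58.1, statmod 1.5.0, R 4.3.3) of 10 group means, unpaired as in the study and with specimen 14 left out, gave 17 comparisons, each adjusted by Benjamini-Hochberg over 45972 probes. Plots used matplotlib 3.10.9 under Python 3.11.15.

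Dogs paired the samples, since each gave 5 biopsies: the median correlation of residuals was 0.392 over 116 pairs of arrays from 1 dog and -0.0446 over 1595 pairs from different dogs. The members and lists (chemokine ligands, receptors, inducing cytokines, and markers of keratinocytes, fibroblasts, endothelium, neutrophils, macrophages, T cells, mast cells, muscle and fat) were chosen with earlier results of these data known. The genes named were the members, for each the 5 genes with the highest correlation, and from the lists those called in the 24 hr interaction and the receptors; others named in a count or beside a list were chosen after their values were seen. The RefSeq table for the dog named 1080 of 54633 array identifiers, giving 1066 symbols. Other scalings, background correction, filters, thresholds, blocks for dog and slide, array weights, fits per time and leaving out each dog were tried. Precision was limited by the number of arrays. Probe sequences and coordinates are not given here, and 1 gene of the lists is not reported here.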

Additional observations from a re-analysis of the deposited data

Results flagged for a closer look

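Of 40 groups of 5 or 6 arrays, 5 held 1 array far from the others of its group, where chance alone marks about 1 in 20 groups. CCL3 was 5.65 in dog 2855 at the 6 hr saline site, against 4.74 to 5.05 in the other sensitized dogs. CCL4 was 8.34 in untreated skin of dog 2853, against 5.93 to 6.55 in the other sensitized dogs. CXCL1 of dog 2716 was low in untreated skin, at 7.51 against 8.04 to 8.27, and high at the 6 hr saline site, at 9.38 against 8.10 to 8.56. CXCL6 was 5.59 at the 6 hr allergen site of dog 2704, against 4.18 to 4.56 in the other nonsensitized dogs.

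The allergen minus saline difference at 24 hr differed between sensitized and nonsensitized dogs by limma's interaction term for CCL3, by 0.83 (adjusted p = 0.0494), and for CXCL6, by 1.67 (adjusted p = 0.00193). The study selected both genes by this term on the same samples, so these values are not independent evidence. CCL3 met the filter through the sensitized allergen site. Its call was lost with no filter and held in 2 of the 12 fits that left out a dog.

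Specimen 14 was left out because, per the study, its RNA was far more degraded than that of the others and its array had a low total signal and correlated poorly with all other arrays, which limits what its values show. It was normalized together with the other 59. There CCL3 was 6.05 (nonsensitized 24 hr allergen arrays 4.66 to 4.91), CCL4 was 9.50 (6.94 to 7.60) and CXCL6 was 6.31 (4.16 to 4.95), each within the range of the other sensitized 24 hr allergen arrays. CXCL1 was 7.01 on that array, below the sensitized 24 hr allergen arrays (8.58 to 9.63), the nonsensitized ones (7.89 to 8.53) and untreated skin of sensitized dogs (7.63 to 8.02).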

How the results depend on the processing

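Counts of members called are out of 4. The share of all probes called moves with the setting and is given above for some settings alone. The counts by themselves therefore do not set the members apart from other probes. In the 24 hr interaction 2 were called; 1 was with 75th percentile scaling, quantile scaling, no scaling, normexp or no filter, 3 with an unadjusted p under 0.002, the slide block (also as a random block) or weighted arrays, 4 with the dog as a replicate block, and 1 to 2 with a dog left out. At 6 hr, allergen minus saline in sensitized dogs called 1; 2 with an unadjusted p under 0.002, the dog or slide block (also as a random block) or weighted arrays, 0 with normexp, no filter, separate fits or all 60 arrays, and 0 to 1 with a dog left out. At 24 hr the same difference called 0; 1 with the slide block, all 60 arrays or weights. In nonsensitized dogs it called 1; 2 with the unadjusted p, no scaling, the dog block, the slide block (also random) or weights, and 1 to 2 with a dog left out. Between groups of dogs at the 24 hr allergen site it was 2 to 4 with a dog left out.

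Against untreated skin, the slide block took the counts in sensitized dogs from 2 to 0 (6 hr allergen), from 4 to 1 (24 hr allergen) and from 3 to 1 (24 hr saline), and in nonsensitized dogs from 1 to 0 (6 hr allergen, also random) and from 3 to 0 (24 hr saline). Without a fold limit the 6 hr allergen count in sensitized dogs was 4, where 32.7% of all probes had an unadjusted p below 0.05. In nonsensitized dogs the 24 hr allergen count of 0 became 1 without a fold limit, with quantile scaling, no filter or the dog block, and 2 with no scaling or weights, and the 6 hr saline count of 0 became 1 with the dog block. With a dog left out, counts ran from 0 to 1 at either allergen site of nonsensitized dogs. For 24 hr against untreated skin the slide block rests on 1 array.

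The 24 hr interaction of CCL3 lost its call at 1.69 (75th percentile), 1.78 (quantile), 1.77 (no scaling), 0.39 (normexp) and 1.73 (no filter), and ran from 0.61 to 0.91 with a dog left out. CCL4 gained one at 1.79 with the dog block, its pairing value, and ran from 1.48 to 2.13 with a dog left out. CXCL1 gained one at 1.18 (unadjusted p and dog block), 1.39 (slide block), 1.25 (random block) and 1.12 (weights), and ran from 0.87 to 1.31 with a dog left out. CXCL6 stayed called in every setting run. As measured it ran from 1.0 to 3.98 over 15 other settings, the lowest being under the bound of 1.35 given above, and from 1.39 to 1.81 with a dog left out. The small negative 6 hr difference of CXCL6 in nonsensitized dogs turned to 0.05 (75th percentile), 0.01 (normexp), 0.12 (slide block), 0.05 without dog 2716 and 0.03 without dog 2847, and ran from -0.30 to 0.05 with a dog left out. The cause of these changes was not tested. The mean over the probes of a gene could be had for CCL4 alone. CCL3 and CXCL6 were near background, and the scaling moved the size of their differences most. The dog block changed no other call of a member than those given here.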
